A study of Mus musculus with 3 samples.

Results

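Cluster 12 is a group of 807 olfactory bulb nuclei among the 31703 that the authors retained and divided into 22 clusters. Its members are all nuclei that carry the number 12 in the deposited annotation, 144 from mouse 1, 581 from mouse 2 and 82 from mouse 3. The 3 adult male C57Bl/6 mice form 1 group, received the same treatment and gave 1 library each. A retrogradely transported adeno-associated virus (retroAAV) carrying the nuclear fluorescent protein H2B-GFP under the general promoter CAG was placed in the piriform cortex and the anterior olfactory nucleus, and green nuclei of the olfactory bulb were sorted and sequenced. The sort therefore took any nucleus that held the virus, whatever its cell type, and no uninjected animal is among the samples. The deposited annotation names no cell type, and the cluster is called here by its number and by its leading genes Kcnt2 and Bmp3.

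Most neurons of the olfactory bulb are inhibitory. Granule cells of the deep layers and periglomerular cells around the glomeruli release GABA, and many of them are replaced throughout life by neuroblasts that migrate in from the wall of the lateral ventricle. A neuron that has just arrived makes doublecortin (Dcx), Sox11, Igfbpl1 and other genes of migration, and a settled neuron makes Rbfox3, the chloride exporter gene Slc12a5 and the NMDA receptor subunit gene Grin2a. The genes that mark cluster 12 encode proteins of the cell surface and a secreted factor. Kcnt2 encodes a potassium channel opened by sodium and chloride, Chrm3 encodes the muscarinic acetylcholine receptor M3, Gabra5 encodes the alpha5 subunit of the GABA-A receptor, and Bmp3 encodes a secreted member of the BMP family.

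Levels are given as CPM, the unique molecular identifiers (UMIs) of a gene per 1000000 UMIs summed over the nuclei of a cluster in a mouse. Cluster 12 was set beside inhibitory clusters 0, 1, 3, 6, 7 and 8, with 18891 nuclei, of which 17870 had a Gad1 UMI, and beside cluster 10, another neuron cluster, with 1047 nuclei. Differences are log2 fold changes ± 1 standard error (SE) from edgeR's quasi-likelihood test on 24 libraries, 8 clusters in each of 3 mice. A gene was called at an adjusted p under 0.05 and a log2 fold change above 1 in either direction. The clusters had been formed on these same counts, so that a call says how repeatably a gene differed over 3 mice and does not test that the cluster exists.

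The share of retained nuclei that fell in cluster 12 was 2.46% for mouse 1, with an exact 95% interval of 2.08% to 2.89%. It was 2.75% for mouse 2, between 2.54% and 2.98%, and 1.73% for mouse 3, between 1.37% and 2.14%. The mean was 2.31% ± 0.530 (SD, n = 3), and the interval of mouse 3 lay below that of mouse 2. These intervals cover counting error only. The median nucleus of the cluster held 5392, 7117 and 7142 UMIs in mice 1, 2 and 3, which was 0.679, 0.845 and 0.676 of the median of all retained nuclei of the same mouse. The summed libraries of the 8 clusters ranged from 645037 UMIs, for cluster 12 in mouse 3, to 44969722. A few cell barcodes were shared by the libraries of different mice (39, 8 and 35 in the 3 pairs), and none of these was in cluster 12 in both mice.

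All 4 markers were higher in cluster 12 than in any of the other 21 clusters. Kcnt2 (chr1:140246158-140612067, plus strand, GRCm38) stood at 842, 619 and 526 CPM in mice 1, 2 and 3. The inhibitory libraries ran from 2.93 over a median of 27.9 to 141 CPM, and cluster 10 held 18.4, 22.7 and 5.52 CPM. The lowest cluster 12 library thus lay above every library it was compared with, and the next highest cluster, number 19, reached 136 ± 25.6 CPM (SD, n = 3). Kcnt1, which encodes the related channel of the same family, was at 42.5, 45.05 and 51.2 CPM in cluster 12 and was not called in either comparison.

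Bmp3 (chr5:98854415-98884396, plus strand) was at 103, 68.6 and 57.4 CPM, from 449 UMIs in all. No inhibitory library exceeded 11.3 CPM and no library of cluster 10 exceeded 3.31 CPM. Gabra5 (chr7:57407672-57510059, minus strand) was at 849, 931 and 953 CPM, against a median of 160 and a maximum of 404 CPM in the inhibitory libraries, the maximum being in cluster 0. Chrm3 (chr13:9875486-10360847, minus strand) was the marker that cluster 12 shared most with another group. It reached 2024, 2329 and 2260 CPM in cluster 12 and 1291, 1130 and 1505 CPM in cluster 10, while the inhibitory libraries lay between 86.3 and 1036 CPM. These groups did not overlap for any of the 4 genes, which were taken as markers of the cluster. Of all genes tested, 1.91% lay above every inhibitory library and 13.7% above every library of cluster 10. The difference of Chrm3 from cluster 10 was below the call limit, at a log2 fold change of 0.71 ± 0.18.

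**Figure D1:**
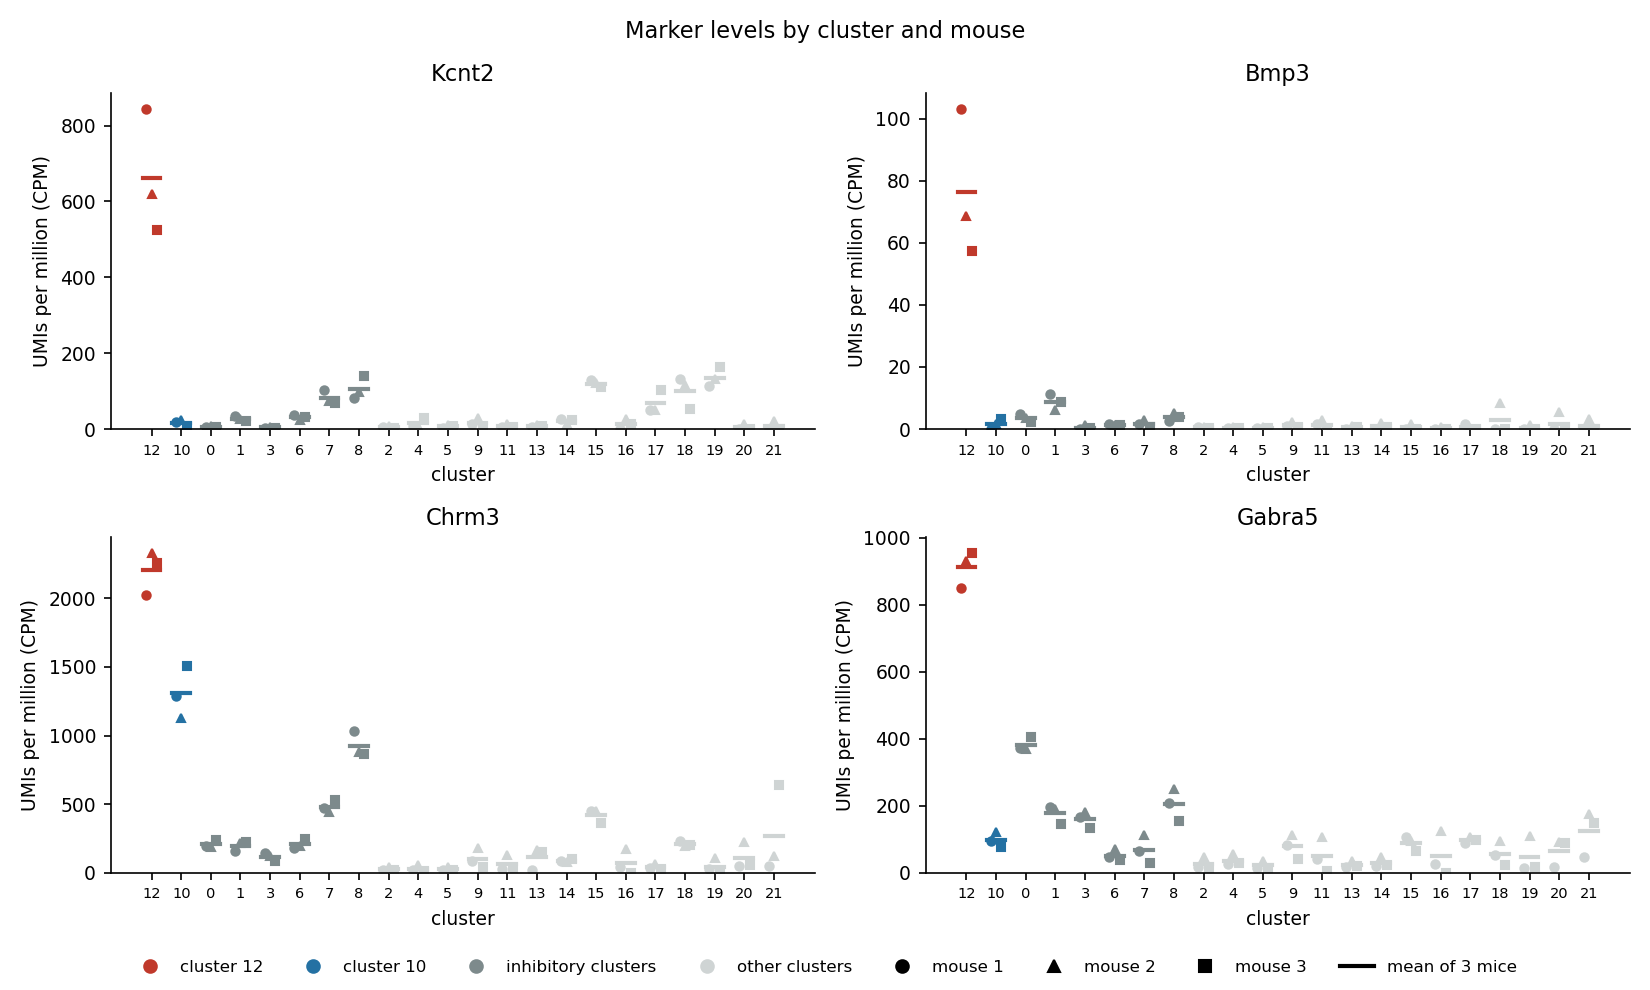
Level of Kcnt2, Bmp3, Chrm3 and Gabra5 (CPM, linear axes) in each of the 22 clusters, with a symbol per mouse and a line at the mean of 3 mice. Cluster 12 is highest in all 4 panels, and cluster 10 comes second for Chrm3 with a mean of 1309 CPM.

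The promoters of 3 of the 4 markers are shown because these genes were high in the same cluster. Some transcription factors whose genes are described further on bind known short elements. The windows run from 250 bases before to 50 bases after the annotated start and come from RefSeq (GRCm38.p6), which was matched by symbol. Bmp3 had no entry. Capitals mark CANNTG, the E-box bound by factors such as Tcf4, which reads the same way on both strands. The Kcnt2 window is chr1:140245468-140245767 (plus strand), the Chrm3 window is chr13:10360754-10361053 (minus strand) and the Gabra5 window is chr7:57510010-57510309 (minus strand).
Kcnt2: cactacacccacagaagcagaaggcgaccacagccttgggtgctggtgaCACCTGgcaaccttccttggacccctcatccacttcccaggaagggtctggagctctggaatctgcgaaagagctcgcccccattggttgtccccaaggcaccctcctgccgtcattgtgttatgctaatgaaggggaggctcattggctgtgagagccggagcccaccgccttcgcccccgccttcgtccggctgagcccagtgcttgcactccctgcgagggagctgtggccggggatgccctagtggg
Chrm3: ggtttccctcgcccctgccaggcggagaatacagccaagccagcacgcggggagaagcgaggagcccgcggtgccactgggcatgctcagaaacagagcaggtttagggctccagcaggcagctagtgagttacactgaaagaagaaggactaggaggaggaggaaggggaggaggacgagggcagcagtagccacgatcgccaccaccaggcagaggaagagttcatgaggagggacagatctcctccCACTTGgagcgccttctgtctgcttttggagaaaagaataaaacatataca
Gabra5: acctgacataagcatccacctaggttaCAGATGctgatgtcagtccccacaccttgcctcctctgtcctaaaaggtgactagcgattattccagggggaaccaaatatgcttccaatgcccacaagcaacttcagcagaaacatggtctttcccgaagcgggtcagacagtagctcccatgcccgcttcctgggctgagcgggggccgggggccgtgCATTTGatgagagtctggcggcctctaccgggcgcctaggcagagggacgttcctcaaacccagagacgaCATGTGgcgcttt
The Gabra5 window held 3 E-boxes, and the other windows held 1 each. An E-box was present in 72.3% of 32851 promoters of this length, and 17.6% held at least 3. The letters AGGTCA, which receptors of the Nr2f family recognise, or their complement TGACCT, were in none of these windows and in 16.3% of all promoters.

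Each marker was also counted by nucleus. A UMI of Kcnt2 was found in 75.4% ± 3.87 (SD, n = 3 mice) of cluster 12 nuclei, of Bmp3 in 31.0% ± 5.25, of Chrm3 in 96.7% ± 0.776 and of Gabra5 in 95.3% ± 1.38. In cluster 9, which carries astrocyte markers and should lack these neuronal genes, the shares were 2.86%, 0.792%, 11.7% and 14.6%, with a median of 5211 UMIs per nucleus against 6871 in cluster 12. Free RNA in the droplets can give such background. After each nucleus had been thinned to 3000 UMIs, which left out 23 of the 807 nuclei, at least 3 of the 4 markers were found together in 58.2% ± 3.22 of cluster 12 nuclei, in 0.919% ± 0.317 of inhibitory nuclei and in 0.717% ± 0.854 of cluster 10 nuclei. Thinning lowered the share with Kcnt2 to 62.6% ± 5.20 and the share with Bmp3 to 18% ± 3.01. The 4 genes were taken as markers of this cluster, so that the higher share is not independent of the levels above. Whether they occur together within cluster 12 more often than their single shares give was not tested.

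**Figure D2:**
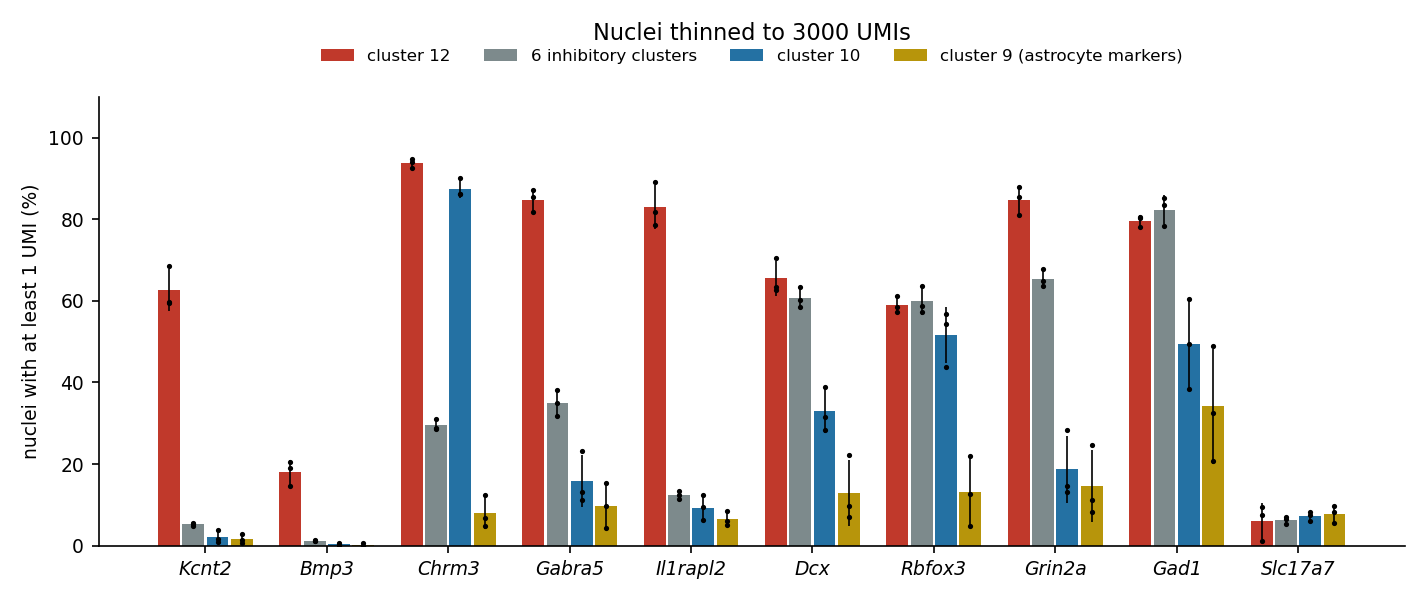
Share of nuclei with at least 1 UMI of a gene after thinning to 3000 UMIs, with bars at the mean of 3 mice, error bars of 1 SD and dots for the mice. Kcnt2 was found in 62.6% of cluster 12 nuclei and in 5.20% of inhibitory nuclei, and Dcx in 65.5% and 60.7%.

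Cluster 12 held the genes of a GABAergic neuron. Gad1, which encodes the GABA-synthesising enzyme GAD67, was at 816, 691 and 643 CPM, inside the range of the inhibitory libraries (358 to 1478 CPM), and after thinning it was found in 79.6% of cluster 12 nuclei against 34.1% in cluster 9. Slc32a1, which encodes the vesicular GABA transporter, was at 326, 241 and 205 CPM and was not called in either comparison. Gad2, which encodes the second synthesising enzyme GAD65, was low at 104, 151 and 132 CPM, below all 18 inhibitory libraries (178 to 964 CPM), with a log2 fold change of -1.47 ± 0.25 and an adjusted p of 0.00011 in edgeR's quasi-likelihood test. The glutamate transporter gene Slc17a7 was at 24.6, 24.2 and 29.5 CPM, within the range of the inhibitory libraries (14.2 to 99.6 CPM), and the share of thinned nuclei with Slc17a7 was 6.05% in cluster 12 and 7.82% in cluster 9.

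Of the 8 genes listed for granule cells, Foxp2 was the gene called against the inhibitory clusters, where 4.35% of all genes tested were called higher and 2.56% lower. The 8 together summed to 10035, 10069 and 10137 CPM, above the highest inhibitory library at 9969 CPM. Meis2, a homeobox gene of bulb interneurons, was at 3999, 3842 and 4333 CPM, and Synpr, which encodes a synaptic vesicle protein, was at 1461, 1786 and 1650 CPM, above all inhibitory libraries (490 to 1348 CPM). Foxp2, at 148, 74.2 and 119 CPM, lay far below the 1637 CPM of cluster 8, and its call was lost without replicate 1, while its log2 fold change turned to -0.60 with the inhibitory clusters summed by mouse. None of the 7 genes of the periglomerular list was called against the inhibitory clusters. Against cluster 10, where 3.84% of all genes tested were called higher, Th was the gene of this list called higher, and none was called lower. Its log2 fold change was 1.41, and the call was lost without replicate 1 and without replicate 3. Calb1 and Calb2, which mark periglomerular subtypes, were at no more than 3.36 and 92.0 CPM in any cluster 12 library. Glial and vascular markers summed to far lower levels than in the clusters where they were highest. The summed 6 astrocyte genes were at 66.7 to 115 CPM in cluster 12 and 21.7 to 785 CPM in the inhibitory libraries, against 4924 CPM in cluster 9, and the 5 oligodendrocyte genes summed to 40.3 to 99.6 CPM against 21422 CPM in cluster 16. The 4 genes of oligodendrocyte precursors summed to 14.5 to 34.1 CPM, against 1628 CPM in cluster 19, the 6 of olfactory ensheathing glia to 155 to 235 CPM, against 17476 CPM in cluster 11, the 5 of microglia to 34.1 to 40.3 CPM, against 3967 CPM in cluster 20, and the 5 of endothelial cells or pericytes to 12.4 to 17.1 CPM, against 1464 CPM in cluster 18. Of these lists, 1 gene each of the precursors, the ensheathing glia and the pericytes was called higher than in the inhibitory clusters. C1ql1 was at 8.95 to 31.0 CPM, with a log2 fold change of 1.79 ± 0.30, and Frzb at 45.9, 23.0 and 38.8 CPM, with 1.87 ± 0.28. Pdgfrb was at no more than 3.43 CPM, and its call was lost without replicate 1, without replicate 3, without the filter on low counts and with the clusters summed. The genes of cortical-type interneurons summed to 8051 to 9548 CPM, above the highest inhibitory library at 3978 CPM, and Adarb2 made up nearly all of that sum. The cluster is given no cell type name on this basis.

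Over all genes, 643 of 14780 were called higher in cluster 12 than in the mean of the inhibitory clusters (4.35%) and 379 lower (2.56%). Without replicate 1 these counts were 515 and 249. Against cluster 10 alone, 567 were called higher (3.84%) and 565 lower (3.82%). The adjusted p alone, without the limit on the fold change, was passed by 1970 genes (13.3%) and 1756 genes (11.9%). With the inhibitory clusters summed by mouse, so that cluster 0 weighs most, the split was 470 higher and 563 lower. Against single inhibitory clusters the calls were fewest for cluster 1, with 1251 genes, and for cluster 0, with 1396, and most for cluster 6, with 1907. The correlation of mean log2(CPM + 1) over 14780 genes, a description across genes that are not independent, was highest for the same clusters, with r = 0.948 for cluster 1, 0.943 for cluster 0, 0.932 for cluster 10 and 0.911 for cluster 6. A gene was called higher against each of the 6 inhibitory clusters separately in 98 cases (0.663%) and lower in 24 (0.162%).

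The genes named from the first comparison were the largest changes among called genes whose libraries did not overlap. Of the 643 genes called higher, 207 had no overlap with any inhibitory library, where 1.91% of all genes tested had none in this direction. Bmp3 led with a log2 fold change of 4.88 ± 0.24, followed by Ltbp2 with 4.82 ± 0.25, Kcnt2 with 4.75 ± 0.16 and Cemip with 4.49 ± 0.21. Ltbp2, which encodes a matrix protein of the family that binds latent TGF-beta, was at 41.4, 28.3 and 34.1 CPM, against at most 2.12 CPM in the inhibitory libraries. Oxtr, the oxytocin receptor gene, was at 27.97, 23.8 and 12.4 CPM, the highest of all clusters, against at most 8.10 CPM, with a log2 fold change of 4.31 ± 0.40. The next highest cluster for Oxtr was number 17, with a mean of 8.77 CPM. Il1rapl2, an X-linked gene of a synaptic adhesion protein, was at 2370, 2257 and 2915 CPM against an inhibitory median of 127 CPM, with a log2 fold change of 4.07 ± 0.14 and an adjusted p of 4.1e-16 in edgeR's test. It was not confined to cluster 12, since cluster 15 held 3947 CPM. Nupr1, Slc13a5, Nr2f2 and Ctxn3 completed the 10, with log2 fold changes from 3.75 to 4.26. Against the 6 inhibitory clusters one by one, Cemip was called higher than in 5, since cluster 8 held a mean of 49.4 CPM and up to 66.1 CPM, against 72.7, 66.5 and 71.3 CPM in cluster 12, and the other 9 were called higher than in all 6. Several of the 10 were higher in other clusters. Cluster 10 held Cemip at 71.9, 55.7 and 104 CPM and Ctxn3 at 179, 140 and 137 CPM, and the highest means of Ltbp2, Nr2f2 and Slc13a5 were in cluster 11, at 97.5, 874 and 81.6 CPM, and those of Cemip and Nupr1 in cluster 18, at 618 and 159 CPM.

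Among the genes called lower, 78 of 379 had no overlap, where 1.13% of all genes tested had none in this direction. Sema3e, which encodes a secreted guidance protein, was at 16.8, 21.2 and 21.7 CPM, the lowest of all 22 clusters, against 27.9 to 1150 CPM in the inhibitory libraries. Its log2 fold change was -2.73 ± 0.28. Mpped2, a phosphodiesterase gene, was at 49.2, 76.2 and 77.5 CPM against 199 to 732 CPM and was lower than in each of the 6 clusters. Nlgn1, which encodes neuroligin 1 of the postsynaptic membrane, was at 308, 398 and 495 CPM against an inhibitory median of 2249 CPM. Erbb4, the neuregulin receptor gene common in bulb interneurons, was at 281, 319 and 388 CPM against a median of 1072 CPM. Kctd16, the gene of an auxiliary subunit of GABA-B receptors, had a log2 fold change of -2.68 ± 0.25. St6galnac5, Tmem255a, Spock1, Gcnt2 and Tmem150c were the others, with log2 fold changes from -2.68 to -2.03. Against the 6 clusters one by one, Sema3e was called lower than in 3, and Kctd16, Nlgn1, Spock1 and Gcnt2 than in 5. The call of Tmem150c was lost without replicate 1.

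Against cluster 10, 544 of the 567 genes called higher and 547 of the 565 called lower had no overlap between 3 and 3 libraries, where 13.7% and 11.5% of all genes tested had none. Grik1, which encodes the kainate receptor subunit GluK1, was at 10.1, 6.86 and 9.30 CPM in cluster 12 and at 1932, 962 and 1801 CPM in cluster 10, a log2 fold change of -7.65 ± 0.32. Pdgfd, a growth factor gene, had a UMI in 1 of the 3 cluster 12 libraries only, against 158, 110 and 206 CPM. Ndnf, a secreted neurotrophic factor, was at 10.1, 15.7 and 7.75 CPM against 794, 528 and 733 CPM. The other genes lower than in cluster 10 were Plpp4, Pde3a, Kcnip2, Brinp3, Caln1, Tmem132c and Rprm, with log2 fold changes from -7.21 to -5.65. Higher than in cluster 10 were Bmp3, Kcnt2, Crispld1, Il1rapl2, Oxtr, Grik4, Synpo2, Ltbp2, Rnf144b and Sorcs1, with log2 fold changes from 5.61 to 4.17. Of these, Bmp3, Kcnt2, Il1rapl2, Oxtr and Ltbp2 were also among the 10 named against the inhibitory clusters. The comparisons share the cluster 12 libraries, so that this is not independent.

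How mature the cluster is was described with lists of 20 genes each for the immature and the mature neuron. No gene of the immature list was called higher than in the inhibitory clusters, and Stmn2 and Dpysl3, which encode a microtubule and a growth cone protein, were called lower. Taken one by one, Stmn2 was called lower than in 4 of the 6 clusters and Dpysl3 than in 3, and neither was called higher. Dpysl3 was at 11.2, 19.7 and 29.5 CPM in cluster 12. Its levels were 341, 347 and 380 CPM in cluster 6 and 9.04, 13.0 and 10.3 CPM in cluster 3. The median log2 fold change of the 19 tested genes was -0.17, against 0.00 over all genes. In the mature list 2 genes, Grin2a among them, were called higher and none lower, with a median of 0.32. The background of these counts is the 4.35% and 2.56% of all genes given above. Stmn2 lost its call without replicate 1 and after thinning, and Grin2a lost it with the inhibitory clusters summed by mouse.

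Dcx was the immature gene that stood out. It was at 546, 647 and 490 CPM in cluster 12, with a median of 376 and a maximum of 529 CPM in the inhibitory libraries, and only cluster 15 had a higher mean, at 667 CPM. The groups overlapped by 1 library of cluster 12, and the log2 fold change of 0.70 ± 0.15 was below the call limit. Against cluster 10, with 185, 269 and 178 CPM, Dcx was called higher at 1.36 ± 0.21. In that comparison Dcx and Ccnd2 were the immature genes called higher and Sox11 the gene called lower, and 6 of the 20 mature genes, Grin2a and Slc12a5 among them, were called higher, where 3.84% of all genes tested were called higher and 3.82% lower. Of the mature genes, Nefl lost this call with each mouse left out, and Slc12a5 and Scn1a without replicate 3, Scn1a also after thinning, and Ccnd2 lost it without replicate 2. Sox11, a transcription factor gene of newborn neurons, was at 58.2, 54.3 and 57.4 CPM, inside the inhibitory range of 20.8 to 113 CPM and below cluster 10 (126, 114 and 90.5 CPM), a call that was lost without replicate 1, without replicate 2, after thinning and without TMM scaling. Igfbpl1 was at 22.4, 18.9 and 12.4 CPM, inside the inhibitory range of 3.40 to 121 CPM, and against the 6 inhibitory clusters one by one it was called higher than in 2 and lower than in 2. Cd24a, Prokr2 and St8sia2, genes of migrating neuroblasts, did not exceed 4.48, 4.65 and 3.36 CPM in any cluster 12 library. None of the 3 was called against the mean of the inhibitory clusters, and clusters 0 and 3 had lower means of each than cluster 12. Against the 6 inhibitory clusters one by one, Cd24a was called lower than in 3 and higher than in none. Prokr2 was called higher than in 1 and lower than in 1, and St8sia2 was not called.

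By cluster means, 15 of the 20 immature genes lay within the range of the 6 inhibitory clusters, Dcx and Dlx6os1 lay above it, and Stmn2, Dlx1 and Draxin lay below it. Of the 20 mature genes, 16 lay within the range, and 4, among them Nefh, Grin2a and Thy1, lay above it. The same counts were not made over all genes, so that they only place the listed genes and draw no conclusion on age. Of 13 genes listed for progenitors and dividing cells, 7 were tested, and the others were too low. Compared with the inhibitory clusters, 1 was called higher and 0 lower, where 4.35% and 2.56% of all genes tested were. The median log2 fold change was 0.51. Over cluster 10, 2 were called higher, Egfr among them at 2.43, and 0 lower, where 3.84% and 3.82% of all genes tested were. Cenpf, Cdk1 and Nes, all untested, had no UMI among the 6200601 of the cluster, which allows up to 0.484 CPM. Mki67, at 6.71, 3.0 and 7.75 CPM against at most 5.52 CPM in the inhibitory libraries, was not called. Tubb3, which is counted among the 15 immature genes within the range, had no UMI in any of the 24 libraries and gives no measure of age here.

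**Figure D3:**
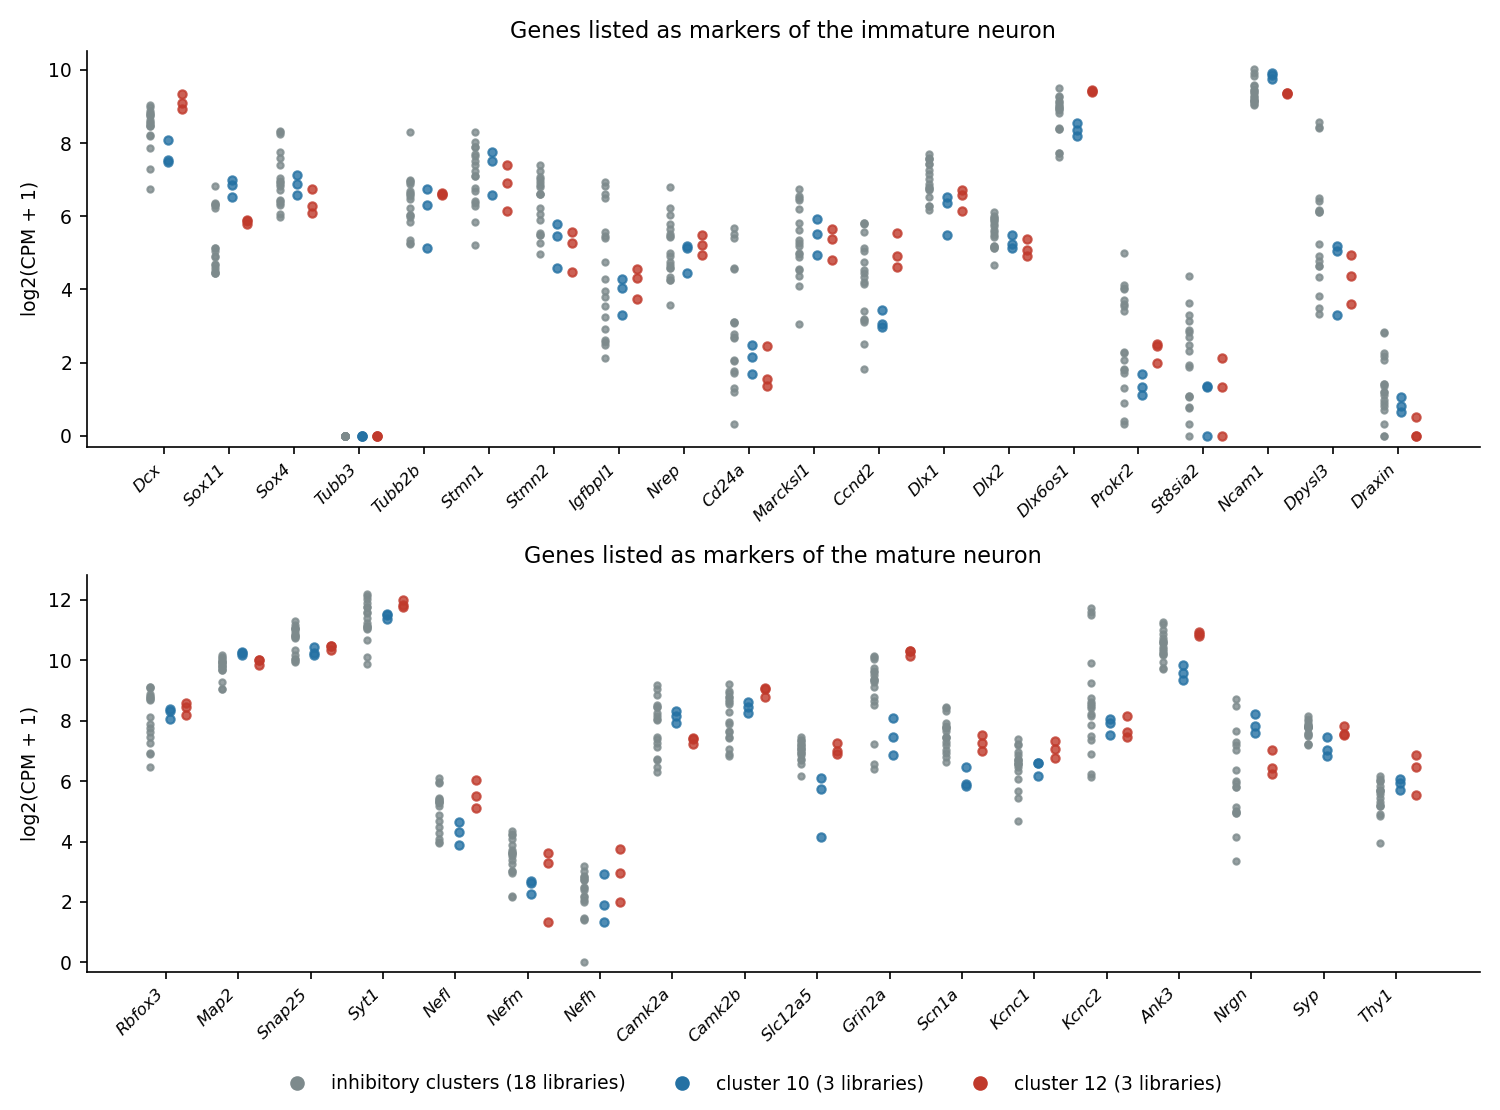
Level of listed genes as log2(CPM + 1) in 18 inhibitory libraries, 3 libraries of cluster 10 and 3 of cluster 12, for the immature list above and the mature list below. Cluster 12 lies near or beyond the top of the inhibitory range for Dcx and Grin2a and inside it for Sox11, Igfbpl1, Cd24a and Prokr2.

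Pairs of genes that swap during maturation gave a mixed order. Grin2a, the late NMDA receptor subunit gene, was at 1119, 1257 and 1248 CPM, the highest mean of all clusters, against 173, 270 and 115 CPM in cluster 10. Inhibitory cluster 3 overlapped with it, at a mean of 1093 CPM and up to 1129 CPM. Against the 6 inhibitory clusters one by one, Grin2a was called higher than in 2 and lower than in none. The ratio of Grin2a to Grin2b, the early subunit gene, was 0.924, 1.17 and 1.08 in cluster 12, above every inhibitory library (0.111 to 0.777). The ratio of the chloride exporter gene Slc12a5 to the chloride importer gene Slc12a2 was 2.13, 1.76 and 2.02, inside the inhibitory range of 0.818 to 5.42. The ratio of Rbfox3 to Dcx was 0.631, 0.589 and 0.592. It lay above all libraries of clusters 6 and 7 and below all libraries of clusters 0, 1, 3 and 8. For Dpysl2, the late partner of Dpysl3, the ratio to Dpysl3 was 19.9, 10.9 and 5.26, against 0.423 to 16.4 in the inhibitory libraries. Its mean was above the means of 5 inhibitory clusters and below that of 1. The ratio for the St8sia pair was left out because St8sia2 had no UMI in some libraries.

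UMIs of Dcx and of mature genes were compared within the nuclei of the cluster. At 3000 UMIs per nucleus, 536 of the 784 nuclei had a UMI of Dcx. Rbfox3 was found in 63.6% ± 1.89 (SD, n = 3 mice) of these and in 50.5% ± 6.26 of the 248 nuclei without Dcx. Grin2a was found in 91.8% ± 3.96 and 72.0% ± 7.68, and Kcnt2 in 61.4% ± 3.20 and 64.6% ± 8.59. In cluster 9 the share with a UMI at this depth was 13.0% for Dcx, 13.2% for Rbfox3 and 14.7% for Grin2a, and the part of free RNA in the shares within cluster 12 was not tested.

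Among 12 GABA-A receptor subunit genes, 3 were called higher and 3 lower than in the inhibitory clusters, where 4.35% and 2.56% of all genes tested were, and the median log2 fold change was -0.09. Gabra5 rose by 2.67 ± 0.18 and Gabrg1, at 29.1, 36.9 and 43.4 CPM, by 1.36 ± 0.31, a call lost without replicate 2. Gabrd, which encodes the delta subunit of extrasynaptic receptors, Gabra4 and Gabrb1 fell by 1.27, 1.15 and 1.12 on the log2 scale, and the call of Gabrb1 was lost after thinning. How reads were assigned where genes overlap on opposite strands is not given in the sources used here.

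Potassium channel genes moved in both directions, with 7 of 27 called higher and 4 lower, where 4.35% and 2.56% of all genes tested were, and a median log2 fold change of 0.35. Besides Kcnt2, these were the small-conductance calcium-activated channel genes Kcnn1 and Kcnn2, the voltage-gated genes Kcnb2, Kcnh5 and Kcnq3 and the G protein-gated inward rectifier gene Kcnj3. Kcnn2 was at 792, 719 and 874 CPM, above all inhibitory libraries (63.7 to 420 CPM) and the highest of all clusters. Kcnh5 was at 636, 691 and 553 CPM, against at most 453 CPM, and Kcnj3 at 1992, 1835 and 1994 CPM, against at most 1424 CPM. The 4 genes called lower were Kcnh7, Kcnma1, Kcnip1 and Kcnn3, of which Kcnn3 lost its call with each mouse left out. Kcnh7, a gene of the ERG channel family, was at 431, 442 and 445 CPM against 743 to 3666 CPM, and it was lower than in each of the 6 clusters. The large-conductance channel gene Kcnma1 was close to the call limit, at -1.0 ± 0.16, and its call was lost without replicate 1 and after thinning. All 7 genes called higher were called higher than in cluster 10 too, where Kcnq5 and Kcnip4 joined them and Kcnd2, Kcnh7, Kcnh8 and Kcnk2 were called lower, which makes 9 of 27 higher and 4 lower where 3.84% and 3.82% of all genes tested were. Kcnd2, the gene of an A-type channel, was at 2192, 2165 and 2090 CPM against 17525, 14617 and 20954 CPM in cluster 10. With the inhibitory clusters summed by mouse, Kcnb2 and Kcnj3 were no longer called, and Kcnb2 lost its call in both comparisons without replicate 1. Against cluster 10, Kcnb2 also lost it without replicate 3 and in DESeq2, Kcnn1 without replicate 2, and Kcnq5 and Kcnk2 without replicate 1.

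**Figure D4:**
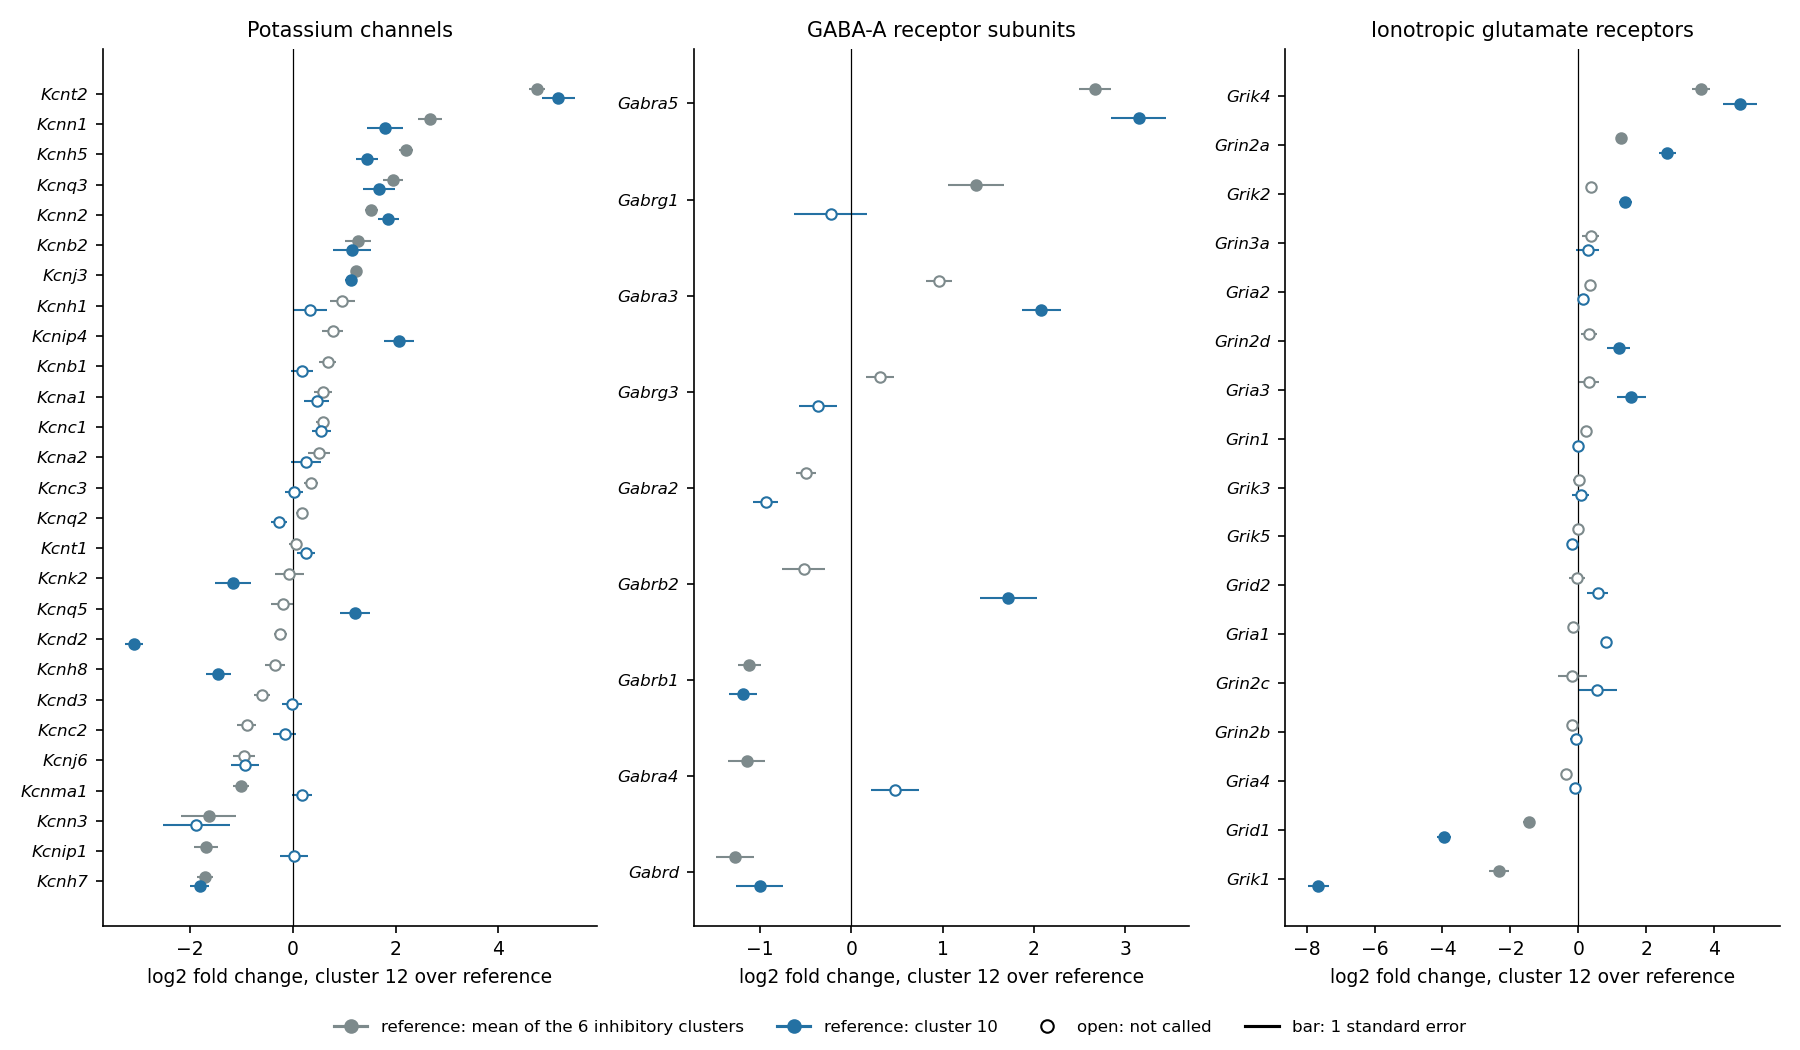
Log2 fold change of cluster 12 over the mean of the 6 inhibitory clusters (grey) and over cluster 10 (blue), with bars of 1 SE and open symbols for genes that were not called, for listed genes reported here. Kcnt2, Gabra5 and Grik4 lead their panels in both comparisons, and Grik1 is lowest among glutamate receptors at -2.33 and -7.65.

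Acetylcholine receptor genes gave 1 call among 8 tested, where 4.35% of all genes tested were called higher and 2.56% lower. It was the marker Chrm3 itself, with a log2 fold change of 3.0 ± 0.11, so that the list adds no call beyond the marker. Chrm1 and Chrm2 were at 57.3 ± 6.80 and 456 ± 76.2 CPM (SD, n = 3) and were not called. Of 17 ionotropic glutamate receptor genes, Grin2a and Grik4 were called higher and Grik1 and Grid1 lower (4.35% and 2.56% of all genes tested), with a median of 0.02. Grik4, which encodes a high-affinity kainate subunit, was at 53.7, 68.6 and 105 CPM against at most 47.5 CPM in the inhibitory libraries. Of 7 metabotropic genes, for which the same background holds, Grm4 and Grm8 were called higher and Grm3 lower, with a median of 0.24. Grm4 and Grm8 encode presynaptic receptors of group III. Grm4 was at 195, 178 and 180 CPM, above all inhibitory libraries (4.43 to 86.4 CPM) and the highest of all clusters. Of 15 monoamine receptor genes tested, Htr2a, Adra1d, Adrb1 and Hrh3 were called higher and Htr1b lower, where 4.35% and 2.56% of all genes tested were. Htr2a was called lower than in cluster 10, at -1.34. The call of Adra1d was lost without replicate 2, and that of Adrb1 without replicate 2, without replicate 3, after thinning and with the clusters summed. Htr1b had no UMI in cluster 12, and its call was lost with each mouse left out and in DESeq2.

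In the BMP and TGF-beta list, 4 of 30 tested genes were called higher (Bmp3, Inhba, Nog and Tgfbr2) and 2 lower (Bmp6 and Acvr1c), against 4.35% and 2.56% of all genes tested, with a median log2 fold change of -0.08. Both genes called lower lost the call without replicate 1, Bmp6 also without replicate 2 and after thinning. The receptor gene Bmpr1a was at 86.2, 79.4 and 86.8 CPM, the lowest mean of all clusters, with a log2 fold change of -0.40 ± 0.10 that was not called. Nog, the gene of the BMP antagonist noggin, was at 17.9, 23.8 and 29.5 CPM, and its call was lost without replicate 1, without replicate 3, after thinning and with the clusters summed. Inhba, which encodes a subunit of activin, was at 49.2, 32.8 and 52.7 CPM. It was higher than in the inhibitory clusters by 1.97 ± 0.19 and lower than in cluster 10 (401, 319 and 375 CPM).

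Of 23 transcription factor genes of bulb interneurons, 6 were called higher and 4 lower (4.35% and 2.56% of all genes tested), with a median log2 fold change of -0.04. Nr2f1 and Nr2f2, which encode the COUP-TF nuclear receptors, were at 226, 139 and 229 CPM and at 63.8, 35.2 and 41.9 CPM, and neither overlapped with any inhibitory library (at most 96.7 and 7.87 CPM). Pax6, a factor of dopaminergic and other periglomerular neurons, was at 401, 272 and 291 CPM, a level that cluster 6 also reached with a mean of 312 CPM. Its log2 fold change over the mean of the 6 clusters was 2.27 ± 0.21. Tcf4, a basic helix-loop-helix factor gene, was at 2154, 2045 and 2205 CPM with a log2 fold change of 1.12 ± 0.09. Nfix rose by 1.78 ± 0.22, while the direction of Foxp2 turned to -0.60 when the inhibitory clusters were summed by mouse. Etv1, Zic1, Sall3 and Bcl11b were called lower, with log2 fold changes from -2.73 to -1.43.

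Of 25 synaptic adhesion genes, 7 were called higher and 3 lower (4.35% and 2.56% of all genes tested), with a median of 0.04. Of these calls, those of Cntn6, Ptprt and Cntnap5a were lost with the clusters summed, those of Ptprt and Tenm1 without replicate 3, and that of Cntnap5a also without replicate 1, without replicate 2, without the filter on low counts and in nuclei with at least 1500 genes. Cntnap2, which encodes the axonal protein Caspr2, was at 7966, 7502 and 6657 CPM against 1074 to 2289 CPM in the inhibitory libraries, and only the mean of cluster 5 was higher, at 8903 CPM. Cntnap5b was at 602, 438 and 415 CPM against at most 216 CPM. Tenm3, a teneurin gene, was at 4092, 5009 and 4130 CPM and overlapped with cluster 1, which reached 4387 CPM. Among 26 axon guidance genes tested, 3 were called higher and 9 lower (4.35% and 2.56% of all genes tested), with a median of -0.10. Sema3c, Slit2 and Ntn1, all called lower, lost the call without replicate 1, Slit2 also without replicate 3 and with the replicate block, and Ntn1 without replicate 2, without replicate 3 and after thinning. Slit1, which encodes a secreted repellent of axons, was the largest of the 3, with 41.4, 56.8 and 57.4 CPM and a log2 fold change of 2.50 ± 0.25, and Robo1, which encodes a receptor for Slit proteins, was among the 9, with 42.5, 48.1 and 57.4 CPM and a log2 fold change of -1.97 ± 0.13. Of 23 vesicle release genes, for which the same background holds, Cplx2, which encodes complexin 2, was the gene called higher, at 427, 300 and 271 CPM against at most 117 CPM, and Syt6, Syt7, Rims1, Unc13c and Sv2c were called lower, the call of Rims1 being lost without replicate 1. Adarb2, an RNA editing enzyme family gene used to mark cortical interneurons, was at 7996, 8366 and 9519 CPM against at most 3888 CPM and was the highest of all clusters. It is 1 of 8 genes listed for cortical-type interneurons. Of the 6 of these that were tested, Adarb2 and Pvalb were called higher and Lamp5 lower than in the inhibitory clusters, and Adarb2 was called higher and Ndnf lower than in cluster 10. Pvalb was at 12.3, 6.01 and 4.65 CPM, Lamp5 lost its call without replicate 1 and without replicate 2, and Lhx6 and Sncg were too low to be tested.

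The lists of calcium-binding, neuropeptide and cadherin genes had 4 of 10, 3 of 16 and 3 of 20 tested members called higher, and 0, 0 and 3 called lower, where 4.35% and 2.56% of all genes tested were. Among the calcium-binding genes, Pvalb lost its call without replicate 1 and Necab2 after thinning and with the clusters summed, and Necab2 was called lower than in cluster 10, a call lost without replicate 1. Among the cadherins, Cdh4 lost its call with the clusters summed and Pcdh15 without replicate 3. Ncald, the gene of neurocalcin delta, was at 510, 388 and 378 CPM against at most 315 CPM. The neuropeptide genes Crh, Tac2 and Cartpt were called higher, with no cluster 12 library above 26.4 CPM, and the calls of Tac2 and Cartpt were lost without replicate 1 and without replicate 2, that of Cartpt also without replicate 3 and after thinning. Of the 13 genes of the activity-induced list, all tested, Egr3 and Npas4 were called higher, and both calls were lost without replicate 2 and with the clusters summed, that of Npas4 also without replicate 1, without the filter on low counts and in nuclei with at least 1500 genes.

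Genes whose mean level over the 22 clusters ran most like that of each marker were chosen by Pearson r of log2(CPM + 1). For Gabra5 these were Tenm3 (r = 0.912), Neto1, Chrm1, Necab3 and Ipcef1. For Bmp3 they were Gabra5 (r = 0.777), Atp10a, Rhcg, Tenm3 and Grm4. For Kcnt2 they were Slc44a5 (r = 0.782), Il1rapl2, Pld5, G0s2 and Pik3r3, and for Chrm3 they were Sp9 (r = 0.829), Prr16, Camk1g, Cfap36 and Dlx1as. The 22 points of each r come from the same 3 animals.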

How the data were processed

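Single nuclei of the olfactory bulb were profiled by 3' droplet sequencing (10x) in 3 mice. Per the file headers and the study's methods, the authors aligned reads to mm10 with Cell Ranger 3.0.2, removed nuclei under 1000 genes or over 5% mitochondrial UMIs, merged the mice and clustered them; the deposited values are raw UMI counts per nucleus and gene, and a deposited table gives each nucleus its mouse, cluster and percent of mitochondrial UMIs. That annotation was used as deposited, no doublet caller was run here, and 7 numeric columns of the table were not used.

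UMIs were summed per mouse and cluster and tested with edgeR 4.0.16 (R 4.3.3; filterByExpr, TMM, quasi-likelihood test, Benjamini-Hochberg adjustment over 14780 genes). The mean of the inhibitory clusters gives each cluster equal weight on the log scale. Alternatives were a mouse block, DESeq2 1.42.0, no low-count filter, library-size scaling, each mouse left out, nuclei with at least 1500 genes, nuclei thinned to 3000 UMIs and summed inhibitory clusters. The scripts were tested on simulated data. Libraries of the same mouse are from the same animal, and their deviations from cluster means correlated with a mean r of 0.145 (84 pairs) against -0.071 between mice (168 pairs). Named genes were the 10 largest called changes per comparison and direction without overlap, with at least 20 CPM in the higher group, leaving out clone names, plus the markers and genes of the lists. Members and lists were chosen with earlier results of these data known. Some genes of the lists enter the counts and medians but are not reported here by name. Coordinates are from GENCODE on GRCm38.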

Additional observations from a re-analysis of the deposited data

How the results depend on the processing

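With each mouse left out in turn, the genes called lower than in the inhibitory clusters numbered 249 to 366 (249 without replicate 1, against 379 with all mice), those called higher 515 to 614, those higher than in cluster 10 388 to 485 and those lower 412 to 508. The replicate block by mouse gave 670 higher and 410 lower against the inhibitory clusters and 602 and 610 against cluster 10, and among the genes of the lists and those named by rule it ended the calls of Elavl4 and Slit2 against the inhibitory clusters and of 1 gene against cluster 10. DESeq2 gave 668 and 403, and 590 and 597. Without the filter on low counts, which moved the median log2 fold change of all genes to -0.14 against the inhibitory clusters, the counts were 716 and 421, and 556 and 579. Summing the inhibitory clusters moved the share of higher calls from 62.9% to 45.5% and turned Foxp2 to -0.60. Of 125 called genes of the lists or rule, 86 kept their call against the inhibitory clusters under every alternative that gave a value, as did 102 of 146 against cluster 10. As a share of the nuclei of the 8 clusters compared, cluster 12 made up 3.66%. The summed library of mouse 3, with 82 nuclei, limits the low genes.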

Other observations

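Atp10a (chr7:58656166-58829420, plus strand), which encodes a phospholipid transporter and was singled out after its values had been seen, was at 282, 315 and 256 CPM in cluster 12. It lay above all inhibitory libraries (1.43 to 63.2 CPM) and was the highest of all clusters, with log2 fold changes of 3.57 ± 0.20 over the inhibitory clusters and 3.82 ± 0.36 over cluster 10.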
